A study of Mus musculus with 18 samples.

Results

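The 10 genes described here are the immediate early transcription factors Fos, Fosb, Jun, Junb, Jund, Egr1, Egr2, Egr3, Nr4a1 and Atf3. They were chosen by name, and each was followed through all 9 groups of the series. The files hold 52958 gene symbols for dermal papilla cells (DP) and 27933 for hair follicle stem cells (HFSC). All 10 genes were present in both and passed the filter on low counts, among 23463 DP and 15231 HFSC genes tested.

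RNA-seq libraries were made from cells of female mouse skin purified by flow cytometry, with 2 libraries in each group. DP cells are the mesenchymal signalling centre of the hair follicle, and HFSC are the epithelial cells from which the follicle regrows. In the surgery experiment C57BL/6 wild type mice were sham-operated (Sham) or adrenalectomised (ADX), and for HFSC a further group was adrenalectomised and fed corticosterone (ADX+CORT). In the deletion experiment mice of 129/C57BL/6 background received tamoxifen intraperitoneally for 6 days in both groups. They were wild type (Control) or carried Pdgfra-CreER with GR fl/fl alleles (GR KO), which removes the glucocorticoid receptor (GR, gene Nr3c1) from cells that express Pdgfra, a gene of the dermal mesenchyme. Ages and the number of animals behind a library were not given in the sources used here, so p-values measure the spread between libraries, which may be technical. The series title asks about corticosterone, the follicle niche and stem cell activity, and the comparisons below ask how the 10 genes stood when the hormone or its receptor was removed.

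Immediate early genes are transcribed within minutes of a stimulus, without new protein being made first, and their products then switch on later genes. Serum response factor with its Elk partners acts on many of them through the CArG box, and CREB acts through the cyclic AMP response element (CRE). Fos and Fosb pair with Jun, Junb or Jund to form the dimer AP-1, Egr1 to Egr3 bind GC-rich sites with zinc fingers, Nr4a1 is an orphan nuclear receptor, and Atf3 is a stress-induced factor of the ATF/CREB family. The hormone-bound glucocorticoid receptor is known to restrain AP-1 through protein contacts. Transcripts of this class are also known to rise in cells released from tissue with enzymes. How long the cells were handled is not given in the sources used here, and its part in the levels below was not tested.

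On GRCm38 the Fos family genes lie at chr12:85473890-85477273 (Fos, plus strand) and chr7:19302696-19310051 (Fosb, minus strand). The Jun family genes lie at chr4:95049034-95052222 (Jun, minus), chr8:84974484-84978718 (Junb, minus) and chr8:70698949-70700616 (Jund, plus). Egr2 is at chr10:67535475-67542188 (plus), Egr3 at chr14:70077203-70082614 (plus), Nr4a1 at chr15:101254269-101274795 (plus) and Atf3 at chr1:191170296-191218039 (minus). All 10 are protein-coding in GENCODE M21. On the opposite strand Jun overlaps the antisense gene Junos, Junb overlaps Prdx2, Jund overlaps Gm11175 and Atf3 overlaps the small RNA Gm24748. The library chemistry does not mark strand, so reads from the stretch where such a pair overlaps cannot be told apart by strand.

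RefSeq promoters on GRCm38.p6 were used for 8 of the 10 genes. Egr1 and Egr3 were left out, and the motif counts below do not cover them. The 250 bases before the start site are shown for Fos, the most abundant of the 10 per kilobase in both cell types, and for Egr2 and Nr4a1, the genes whose levels passed the test after adrenalectomy in HFSC. They are chr12:85473640-85473889, chr10:67537619-67537868 and chr15:101266596-101266845, all on the plus strand. Capitals mark the CRE core TGACG on either strand and, in Egr2, the CArG box.
Fos: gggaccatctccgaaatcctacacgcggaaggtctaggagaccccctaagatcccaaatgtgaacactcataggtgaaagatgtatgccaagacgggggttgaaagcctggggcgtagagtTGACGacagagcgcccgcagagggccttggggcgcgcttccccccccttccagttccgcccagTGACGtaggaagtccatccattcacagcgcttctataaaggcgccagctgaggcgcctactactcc
Egr2: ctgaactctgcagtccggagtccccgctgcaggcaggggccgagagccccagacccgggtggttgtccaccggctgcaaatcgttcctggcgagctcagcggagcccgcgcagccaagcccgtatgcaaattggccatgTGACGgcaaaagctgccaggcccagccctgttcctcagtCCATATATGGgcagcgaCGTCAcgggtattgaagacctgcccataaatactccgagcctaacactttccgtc
Nr4a1: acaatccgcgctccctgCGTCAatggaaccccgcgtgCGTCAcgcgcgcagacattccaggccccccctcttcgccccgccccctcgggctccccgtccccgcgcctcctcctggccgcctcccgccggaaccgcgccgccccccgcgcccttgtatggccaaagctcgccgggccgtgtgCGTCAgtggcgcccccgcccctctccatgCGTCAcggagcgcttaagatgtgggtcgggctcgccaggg
Fos held 2 CRE cores, 129 and 66 bases before the start site, Egr2 held 2 at 111 and 55, and Nr4a1 held 4 at 233, 213, 69 and 40. Egr2 also held a CArG box 72 bases before its start. Of the 8 promoters, 6 held a CRE core, against 17.8% of all 32851 promoters cut to the same length. The full CRE, written TGACGTCA, was in 0 of 8 (1.55% of all). A CArG box was in 1 of 8 (1.47% of all), an EGR site written GCGGGGGCG or GCGTGGGCG in 2 of 8 (3.06% of all), and an AP-1 site written TGANTCA in 0 of 8 (6.75% of all). The palindromic glucocorticoid response element, AGAACA and TGTTCT with 3 bases between, was in 0 of 8 and in 0.00913% of all. All motifs were read on both strands. A match is a description of these letters and not a bound site. Sites more than 250 bases before the start were not searched, so a motif counted as absent may lie further away. For Jund the start site used lay 1210 bases from that of its DP transcript.

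The DP libraries held 6194415 to 13941628 counts and the HFSC libraries 14067139 to 33014976. Levels are given as CPM, a gene's read counts scaled to library size with the TMM method of edgeR. The deleted gene Nr3c1 fell in GR KO DP (log2 fold change −2.73, SE 0.38, edgeR adjusted p = 0.0212), from 671 and 978 CPM in Control to 137 and 111. Without Control replicate 2 its adjusted p was 0.0589. In HFSC, which were not the target of Pdgfra-CreER, Nr3c1 stood at 257 and 338 CPM in Control and 243 and 170 CPM in GR KO. The 12 dermal papilla markers summed to 2404 to 6845 CPM in DP libraries with none at 0, beside 18041 to 89197 CPM of 10 dermal fibroblast markers. The 12 HFSC markers summed to 21964 to 55638 CPM in HFSC libraries with none at 0. The 8 immune cell markers summed to 2452 to 2980 CPM in the 4 HFSC libraries of the deletion experiment and to 49.0 to 169 CPM in the 6 of the surgery experiment. DP and HFSC were counted in different ways, so no level was compared between them.

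Ranks and shares below are within a cell type, with DP given first and HFSC second. Together the 10 genes took 0.447% to 1.94% of the counts of a DP library and 0.608% to 1.58% of an HFSC library. Ranked by mean level per kilobase over the libraries of a cell type, Fos, the partner of the Jun proteins in AP-1, was number 28 of 23463 genes in DP and number 25 of 15231 in HFSC. Junb was number 70 and 61, Jun 98 and 71, Egr1 138 and 144, and Jund 143 and 399. Atf3 was number 2090 and 134. Nr4a1 (601 and 728) and Fosb (1018 and 1727) followed. Egr2 was number 8451 and 3773, and Egr3 number 7936 and 10714. Fos, Junb, Jun, Egr1 and Jund were thus the abundant members, and Egr2 and Egr3 the scarce ones.

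**Figure D1:**
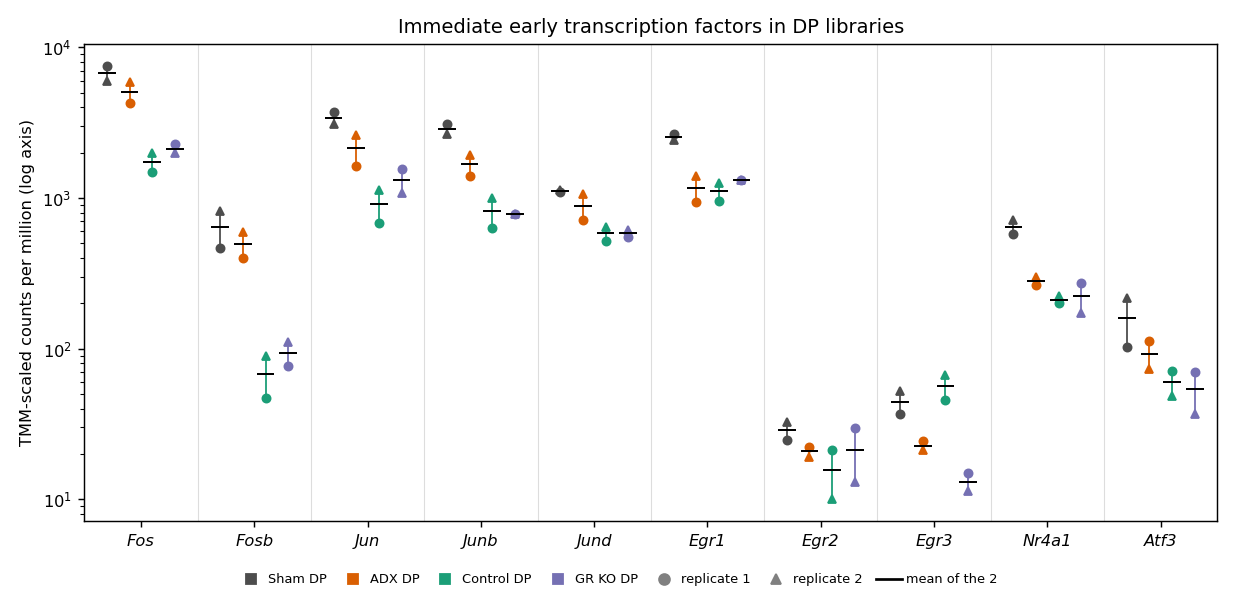
TMM-scaled CPM on a log axis for the 10 genes in the 8 DP libraries; circles are replicate 1, triangles replicate 2, and black bars the mean of the 2. For Fos, both Sham and both ADX libraries (4258 to 7558) lie above all Control and GR KO libraries (1494 to 2266), and for Egr3 both GR KO libraries (14.9 and 11.3) are the lowest.

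In DP the Fos and Jun genes stood higher in all libraries of the surgery experiment than in any of the deletion experiment. Fosb stood at 465 and 825 CPM in Sham and 398 and 599 in ADX, against 46.7 and 88.8 in Control and 76.4 and 111 in GR KO. The highest group mean of Fosb was 9.52 times the lowest. For Fos the group means were 6778 ± 1103 CPM in Sham, 5076 ± 1158 in ADX, 2130 ± 192 in GR KO and 1737 ± 344 in Control (SD, n = 2 each). Neighbouring groups in that order did not overlap for Fos, but only the step between the experiments was free of overlap for Fosb and Atf3. For Jun, Junb and Jund the Control and GR KO libraries overlapped, and for Jund the highest group mean was 1.92 times the lowest. For Egr2 each group overlapped its neighbour in the order, with group means of 15.7 to 28.8 CPM. The experiments differ in strain, surgery and tamoxifen, which cannot be told apart here, and no test was made between them.

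After adrenalectomy all 10 genes stood lower in DP (46.3% of all genes did), and none passed the test. Nr4a1 stood at 576 and 717 CPM in Sham and at 264 and 297 in ADX. Both ADX libraries lay below both Sham libraries, with a log2 fold change of −1.21 with SE 0.29 (edgeR adjusted p = 0.228). Egr1, the founding member of its zinc finger family and a gene of chromosome 18, stood at 2661 and 2420 CPM in Sham and at 942 and 1391 in ADX. That is a log2 fold change of −1.12 with SE 0.30 (edgeR adjusted p = 0.248). Egr3 stood at 36.6 and 52.4 CPM in Sham and at 24.3 and 21.1 in ADX, a log2 fold change of −0.97 (SE 0.35). For Junb, an AP-1 subunit that can oppose Jun, the values were 3115 and 2658 CPM against 1405 and 1941, a log2 fold change of −0.79 (SE 0.32). The other log2 fold changes ran from −0.79 for Atf3 to −0.34 for Jund, and without Sham replicate 2 that of Fosb was 0.05.

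In edgeR 0 of the 10 passed at an adjusted p of 0.05, where 0.0170% of all 23463 genes did. At an unadjusted p under 0.05 it was 4 of 10, all lower (Nr4a1, Egr1, Egr3 and Junb), against 7.49% of all genes lower. DESeq2 called 2 of 10, Nr4a1 and Egr1 (adjusted p = 0.0372 and 0.0335), against 1.41% of its genes called lower. For 8 of 10 genes the libraries did not overlap, all lower in ADX, where 19.4% of all genes were lower without overlap, and Fosb and Atf3 overlapped. The median log2 fold change was −0.73 for the 10 genes and 0.08 for all genes.

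Other lists in the same libraries are given for comparison, and they share some genes. Zfp36 and Dusp1 are in both the other immediate early genes and the feedback inhibitors. Dusp1 is also among the glucocorticoid-induced genes, and Nab2 is in the feedback inhibitors and the AP-1 or Egr targets. Of 22 other immediate early genes tested, 21 were below 0 and 19 lower without overlap, with a median of −0.93 and 0 called. Among them Btg2, an antiproliferative gene, had a log2 fold change of −1.37 with SE 0.35 (edgeR adjusted p = 0.237), and Socs3, an inhibitor of cytokine signalling, −1.36 (SE 0.35, edgeR adjusted p = 0.242). Of 12 genes known to be induced by glucocorticoids, 11 were below 0, with a median of −1.51 and 0 called. The 14 feedback inhibitors of the MAP kinase and Egr pathways had a median of −0.47 and the 12 heat shock genes −0.45, with 0 called in each. Of 18 genes known as AP-1 or Egr targets 13 were below 0 and 5 above, with a median of −0.45 and 0 called. In that list Mmp3 was at −4.25 (SE 0.68, edgeR adjusted p = 0.137, DESeq2 adjusted p = 1.29e-10). Ccnd1 went the other way, at 1.57 (SE 0.40, edgeR adjusted p = 0.24, DESeq2 adjusted p = 0.02). The summed epidermal markers stood at 1250 and 4417 CPM in Sham and 539 and 319 in ADX, and the 8 pericyte and smooth muscle markers at 276 and 433 CPM in Sham and 5741 and 964 in ADX, with none of either list at 0. Their part in the values of the 10 genes was not tested. In sorted bulk cells, fewer cells of a type and less RNA per cell cannot be told apart.

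After deletion of the receptor Egr3 fell in DP, and no other gene of the 10 passed the test. Egr3 is a zinc finger factor that is itself switched on by calcium and growth factor signals. It stood at 45.4 and 67.3 CPM in Control and at 14.9 and 11.3 in GR KO, or 23.3% of the Control level. Both GR KO libraries lay below all 6 other DP libraries. The log2 fold change was −2.10 (SE 0.36, edgeR adjusted p = 0.0342). The estimated counts fell mainly to a transcript of 3876 bases, with 459.2 and 607.4 in Control and 122.1 and 57.4 in GR KO, and one of 3940 bases, with 100.9 and 105.8 in Control and 61.9 and 84.6 in GR KO. The longer one held more counts than the shorter in GR KO replicate 2. Without Control replicate 2 the adjusted p was 0.211, without GR KO replicate 1 it was 0.0668, and without GR KO replicate 2 it was 0.115, with log2 fold changes of −1.97, −2.31 and −1.90.

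Among the 10, 1 gene was called in GR KO DP, and 1.54% of all genes were called in either direction (180 or 0.767% higher and 181 or 0.771% lower, against 134 higher and 247 lower under median-of-ratios scaling). The remaining log2 fold changes ran from −0.16 for Atf3 to 0.54 for Jun, with SE of 0.28 to 0.50 and edgeR adjusted p of 0.54 or more. Fos was at 1494 and 1981 CPM in Control and 2266 and 1994 in GR KO, a log2 fold change of 0.29 (SE 0.31). Fos and Egr1 were higher without overlap (31.6% of all genes), Egr3 was lower without overlap (20.0% of all genes), and the other 7 genes overlapped. The median was 0.17 for the 10 genes and 0.17 for all genes. Median-of-ratios scaling moved the median of all genes to 0.07, and under it Nr4a1 turned from 0.08 to −0.01. The log2 fold changes of Fos, Fosb, Junb, Jund, Egr1, Egr2 and Atf3 changed sign when 1 library was left out, and that of Jun stayed above 0 in every alternative tried.

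Single genes of the wider pathway passed the test in GR KO DP. Of the 22 other immediate early genes, 1 rose, the kinase Plk2 (12.8 ± 0.408 to 96.2 ± 7.63 CPM, SD, n = 2 each). Its log2 fold change was 2.91 (SE 0.57, edgeR adjusted p = 0.0435). Of 15 upstream kinases and factors 1 rose, the MAP kinase kinase Map2k1 (log2 fold change 1.36, edgeR adjusted p = 0.0376). Of 18 genes known as AP-1 or Egr targets 3 rose, the protease inhibitor Timp1 (2.89), the chemokine Ccl2 (3.16) and the adhesion molecule Icam1 (3.13), with edgeR adjusted p of 0.0312, 0.0373 and 0.0423. Of the 12 glucocorticoid-induced genes 8 fell, among them Angptl4, an inhibitor of lipoprotein lipase (−2.70, edgeR adjusted p = 0.0165), Tsc22d3 (−2.74, edgeR adjusted p = 0.0212) and Per1 (−1.75, edgeR adjusted p = 0.0312). Angptl4 kept its call in all 10 alternatives run, with edgeR or DESeq2 adjusted p of at most 0.0427. The calls of Plk2, Map2k1, Timp1, Ccl2, Icam1, Tsc22d3 and Per1 were lost in edgeR without Control replicate 2. The adjusted p was then 0.312 for Plk2, 0.479 for Map2k1, 0.26 for Timp1, 0.301 for Ccl2, 0.335 for Icam1, 0.0502 for Tsc22d3 and 0.104 for Per1. Of these 7, all but Tsc22d3 were also lost without at least 1 of the other libraries. GR KO replicate 1 held 2727 CPM of the immune cell markers against 32.4 in replicate 2 and 350 and 183 in Control. Fibroblast markers summed to 76195 and 89197 CPM in GR KO and 28791 and 18041 in Control, with 4 of 10 called higher. Those 4 calls (Cd34, Col3a1, Col1a2 and Sparc) were lost in a fit of Control and GR KO alone. The dermal papilla markers summed to 2404 and 2912 CPM in GR KO and 4218 and 6845 in Control, with 5 of 12 above 0, 7 below and 0 called. The epidermal markers summed to 727 and 75.9 CPM in GR KO and 2399 and 1045 in Control, and 2 of 10 fell, Lor (−5.95, edgeR adjusted p = 0.0165) and Cst6 (−6.16, edgeR adjusted p = 0.0344). The heat shock genes summed to 7355 and 21436 CPM in Control and 3305 and 4844 in GR KO. The part of these in the values of Egr3 and the listed genes was not tested.

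**Figure D2:**
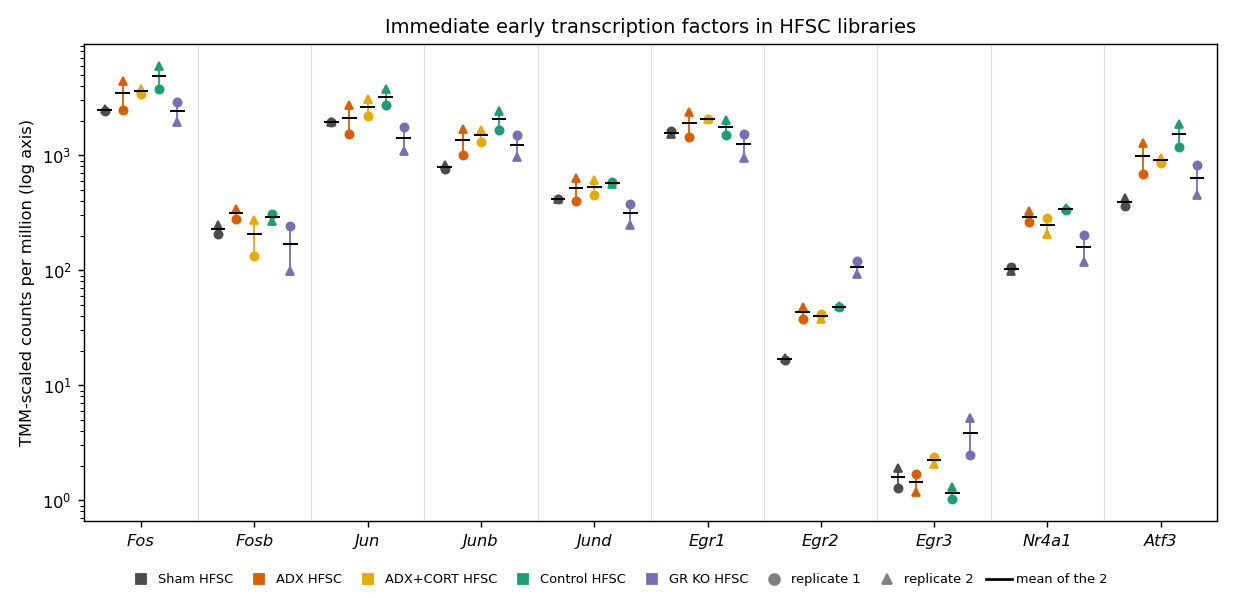
TMM-scaled CPM on a log axis for the 10 genes in the 10 HFSC libraries; circles are replicate 1, triangles replicate 2, and black bars the mean of the 2. Egr2 and Nr4a1 are lowest in both Sham libraries (16.7 and 17.3, and 107 and 97.7), Egr2 is highest in both GR KO libraries (120 and 92.6), and Fos differs more between the replicates of ADX (2503 and 4411), Control (3770 and 6022) and GR KO (2896 and 1947) than between those of Sham (2447 and 2549).

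In HFSC, Egr2 and Nr4a1 rose after adrenalectomy. Egr2, a zinc finger factor best known from nerve sheath and hindbrain, stood at 16.7 and 17.3 CPM in Sham and at 38.0 and 48.4 in ADX. All 8 other HFSC libraries lay above both Sham libraries. The log2 fold change was 1.34 (SE 0.24, edgeR adjusted p = 0.0439). Nr4a1 stood at 107 and 97.7 CPM in Sham and at 262 and 325 in ADX, again without overlap. Its log2 fold change was 1.52 (SE 0.27, edgeR adjusted p = 0.0439). The 2 genes were called among 45 of 15231 genes, 0.295%. Each call was lost without each of the 4 libraries. For Egr2 the adjusted p was 0.298 and 0.194 without Sham replicate 1 and 2, and 0.106 and 0.0637 without ADX replicate 1 and 2. For Nr4a1 the same values were 0.226, 0.199, 0.106 and 0.0531. With the replicate number as a block they were 0.0668 for Egr2 and 0.0558 for Nr4a1, and in a fit of Sham and ADX alone 0.054 and 0.0247.

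Atf3 had a log2 fold change of like size that did not pass the test. It stood at 360 and 425 CPM in Sham and at 691 and 1273 in ADX, a log2 fold change of 1.32 with SE 0.35 (edgeR adjusted p = 0.105), and DESeq2 gave it an adjusted p of 0.00489. DESeq2 also called Egr2 and Nr4a1, 3 of the 10 against 5.99% of its genes in either direction. Junb stood at 755 and 830 CPM in Sham and at 998 and 1707 in ADX (log2 fold change 0.77, SE 0.31, edgeR adjusted p = 0.261). Fos was at 2447 and 2549 CPM in Sham and 2503 and 4411 in ADX, so its groups overlapped. In 9 of 10 genes the log2 fold change was above 0 (49.6% of all genes), and in 5 the libraries did not overlap, where 25.5% of all genes were higher without overlap. The median log2 fold change was 0.46 for the 10 genes and 0.00 for all genes.

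ADX replicate 2 was the higher of its pair for 9 of the 10 genes, with a median ratio of 1.60 to replicate 1, and Egr3 was the exception. Without it the log2 fold change was −0.35 for Jun, −0.03 for Jund and −0.11 for Egr1, against 0.13, 0.32 and 0.28 with it. Egr2 and Nr4a1 then stood at 1.17 and 1.37. The summed HFSC markers were 21964 and 32908 CPM in ADX against 43998 and 48877 in Sham, and the dermal fibroblast markers 1721 and 3259 against 4018 and 4209. Much of the latter difference lay in Cd34, which is also an HFSC marker (2439 ± 125 CPM in Sham and 1130 ± 513 in ADX, SD, n = 2 each). Of the 10 fibroblast markers 5 were above 0 and 5 below, with a median log2 fold change of −0.09. Dcn stood at 27.7 ± 9.5 CPM in Sham and 81.9 ± 24.2 in ADX (SD, n = 2 each), and Pdgfra was at 0 in ADX. The 12 heat shock genes summed to 3125 and 3243 CPM in ADX and 2269 and 2644 in Sham. The part of these in the results was not tested.

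With corticosterone fed after adrenalectomy, Egr2, Nr4a1 and Atf3 stood near their ADX level. Egr2 was at 41.8 and 37.6 CPM, Nr4a1 at 283 and 208 CPM and Atf3 at 866 and 951 CPM. Against ADX the log2 fold changes were −0.12 (SE 0.23), −0.26 (SE 0.27) and −0.11 (SE 0.34), with edgeR adjusted p = 0.836, 0.653 and 0.908 and overlapping libraries for all 3. Of the 10 genes 0 were called in edgeR, 0 had an unadjusted p under 0.05 and 0 were called in DESeq2, against 0%, 19.3% and 9.39% of all genes. Values ran from −0.61 for Fosb to 0.64 for Egr3, the median was 0.04, and 7 genes changed sign when 1 library was left out.

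Against Sham, the ADX+CORT libraries were higher without overlap for 9 of the 10 genes, where 21.5% of all genes were. Fosb overlapped. In edgeR 0 of the 10 were called and 4 had an unadjusted p under 0.05, all higher, against 0% called and 4.33% of all genes unadjusted and higher. The log2 fold change was 1.22 for Egr2 (SE 0.24, edgeR adjusted p = 0.227), 1.27 for Nr4a1 (SE 0.27, edgeR adjusted p = 0.333), 1.21 for Atf3 (SE 0.35, edgeR adjusted p = 0.564) and 0.91 for Junb (SE 0.31, edgeR adjusted p = 0.721). DESeq2 called Egr2 and Nr4a1 (adjusted p = 0.00273 and 0.00325), 2 of 10 against 0.392% of its genes called higher. The 3 comparisons of the surgery experiment share libraries, Sham in 2 of them, ADX in 2 and ADX+CORT in 2. The values of Egr2 side by side (1.34 for ADX against Sham, −0.12 for ADX+CORT against ADX, 1.22 for ADX+CORT against Sham) are therefore not independent.

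**Figure D3:**
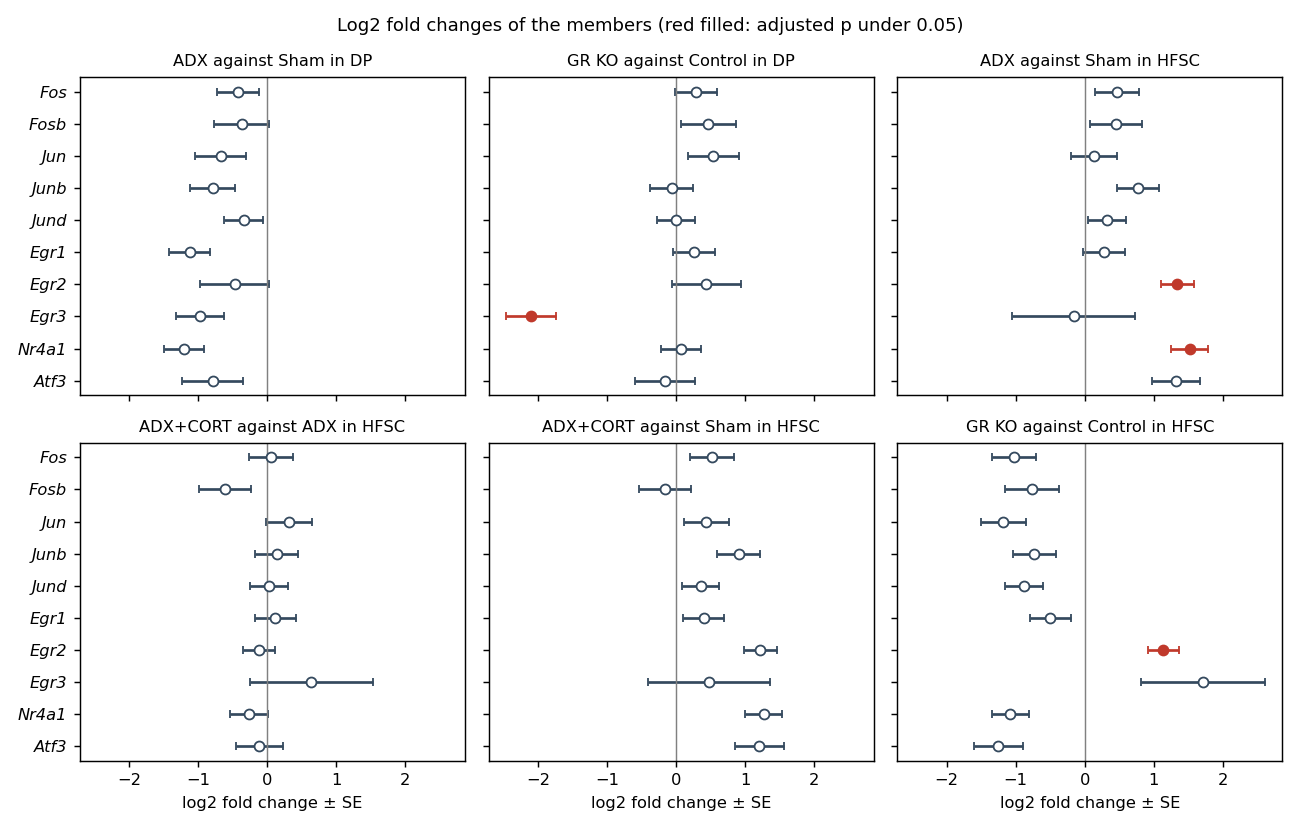
Log2 fold change with its standard error (horizontal axis and bars) for the 10 genes in the 6 comparisons; red filled points had an edgeR adjusted p under 0.05 and open points did not. Called are Egr3 in GR KO DP (−2.10), Egr2 (1.34) and Nr4a1 (1.52) in ADX HFSC, and Egr2 (1.14) in GR KO HFSC.

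In HFSC of mice with the receptor deleted in the dermis, Egr2 rose while 8 of the 10 genes stood lower (49.3% of all genes did). Egr2 was at 48.0 and 48.6 CPM in Control and at 120 and 92.6 in GR KO, the 2 highest values of all HFSC libraries. The log2 fold change was 1.14 (SE 0.23, edgeR adjusted p = 0.0421). Leaving out each library in turn raised the adjusted p to 0.117 and 0.21 (Control replicate 1 and 2) and to 0.121 and 0.0626 (GR KO replicate 1 and 2). With the replicate number as a block it was 0.0519, and in a fit of Control and GR KO alone 0.109. Egr3 was also higher, at 1.02 and 1.30 CPM in Control and 2.46 and 5.18 in GR KO (1.71, SE 0.90, edgeR adjusted p = 0.458). These values rest on 20 and 39 counts against 54 and 93, counted over 1416 exon bases.

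The genes that stood lower were the AP-1 subunits, Egr1, Nr4a1 and Atf3. Nr4a1 was at 333 and 347 CPM in Control and 202 and 119 in GR KO, a log2 fold change of −1.08 with SE 0.27 (edgeR adjusted p = 0.0762). Atf3 was at 1179 and 1859 CPM in Control and 825 and 451 in GR KO (−1.25, SE 0.35, edgeR adjusted p = 0.12). Jun was at 2736 and 3746 CPM against 1765 and 1091 (−1.18, SE 0.33, edgeR adjusted p = 0.12). For Fos the values were 3770 and 6022 CPM against 2896 and 1947 (−1.02, SE 0.32, edgeR adjusted p = 0.166). Jund was at 587 and 562 CPM against 375 and 250 (−0.88, SE 0.28, edgeR adjusted p = 0.166). In each of these 5 genes both GR KO libraries lay below both Control libraries. Junb (−0.73) and Fosb (−0.77) were also lower without overlap, and Egr1 (−0.50) overlapped.

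In edgeR 1 of the 10 was called, Egr2, where 0.985% of all genes were called. At an unadjusted p under 0.05, 6 of 10 were lower against 6.12% of all genes. DESeq2 called 6 of 10, with Egr2 higher and Nr4a1, Jun, Atf3, Fos and Jund lower (adjusted p = 0.00408, 0.00811, 0.00859, 0.0242 and 0.0382 for the last 5), against 4.85% of its genes. Libraries did not overlap for 7 lower genes (19.1% of all genes were lower without overlap) and 2 higher genes (19.3%). The median was −0.82 for the 10 genes and 0.00 for all genes. GR KO replicate 1 was the higher of its pair for 9 of the 10 genes, with Egr3 the exception. Without it edgeR called Nr4a1 (−1.52, adjusted p = 0.0171) and Atf3 (−1.75, adjusted p = 0.0371), and without GR KO replicate 2 Nr4a1 was at −0.75 (adjusted p = 0.336).

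Beside the 10 genes, the other immediate early genes and the heat shock genes also stood mostly lower. Of 25 other immediate early genes 21 were below 0 and 17 lower without overlap, with a median of −0.61, and 1 fell. That was Cyr61, a matricellular protein gene, from 2522 ± 684 to 709 ± 283 CPM (SD, n = 2 each). Its log2 fold change was −1.83 (SE 0.31, edgeR adjusted p = 0.0327), and the adjusted p was 0.163 without Control replicate 2 and 0.068 without GR KO replicate 2. Of 12 heat shock genes 2 fell, Hspa1b (−1.63, edgeR adjusted p = 0.0327) and Hspb1 (−1.24, edgeR adjusted p = 0.0421). Their adjusted p was 0.0779 and 0.0823 without Control replicate 1, 0.151 and 0.201 without Control replicate 2, and 0.114 and 0.181 without GR KO replicate 2. None of 13 other AP-1 and bZIP factors, 17 upstream kinases and factors, 14 feedback inhibitors or 17 AP-1 and Egr targets was called, with medians of −0.12, 0.13, −0.13 and 0.02. In ADX HFSC the same lists had 1 called among 25 other immediate early genes (Plk2, 1.49, SE 0.28, edgeR adjusted p = 0.0475). Among 17 targets 1 was called (Hbegf, an EGF receptor ligand, 2.10, SE 0.30, edgeR adjusted p = 0.0231). Of 11 glucocorticoid-induced genes tested in ADX HFSC, 4 were above 0 and 7 below, with a median of −0.19. Among them 1 was called higher (Angptl4). That call was lost with the replicate block, in a fit of Sham and ADX alone and with libraries of the same experiment only. Its log2 fold change ran from 2.01 to 5.44 when 1 library was left out. In GR KO HFSC 4 were above 0 and 7 below, with a median of −0.29 and 0 called. The adjusted p of Plk2 and Hbegf was 0.205 and 0.205 without Sham replicate 1, 0.251 and 0.102 without Sham replicate 2, and 0.33 and 0.124 without ADX replicate 1.

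Beside these values the summed heat shock genes were at 4828 and 5426 CPM in Control HFSC and 2919 and 2729 in GR KO HFSC. The 10 dermal fibroblast markers summed to 3188 and 3957 CPM in Control and 1425 and 1475 in GR KO with Dpt at 0 there. The log2 fold change was below 0 for all 10, Cd34 among them (2033 ± 155 and 723 ± 85.6 CPM, SD, n = 2 each). The HFSC markers summed to 47536 and 55638 CPM in Control and 23652 and 35828 in GR KO. The 10 epidermal markers summed to 7089 and 10253 CPM in Control and 14706 and 9099 in GR KO. Of these 2 were called higher in edgeR (Krt79 and Cst6) and 1 lower (Lor). When 1 library was left out, their log2 fold changes ran from 1.89 to 2.64, 1.34 to 2.20 and −2.35 to −1.18. Each call was lost without at least 1 library, and those of Cst6 and Lor also in a fit of Control and GR KO alone. Of 8 dermal papilla markers tested 1 was called lower (Crabp1), a call lost in a fit of Control and GR KO alone. Immune cell markers were at 2773 and 2558 CPM in Control and 2452 and 2980 in GR KO. The part of these in the levels of the 10 genes was not tested.

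**Figure D4:**
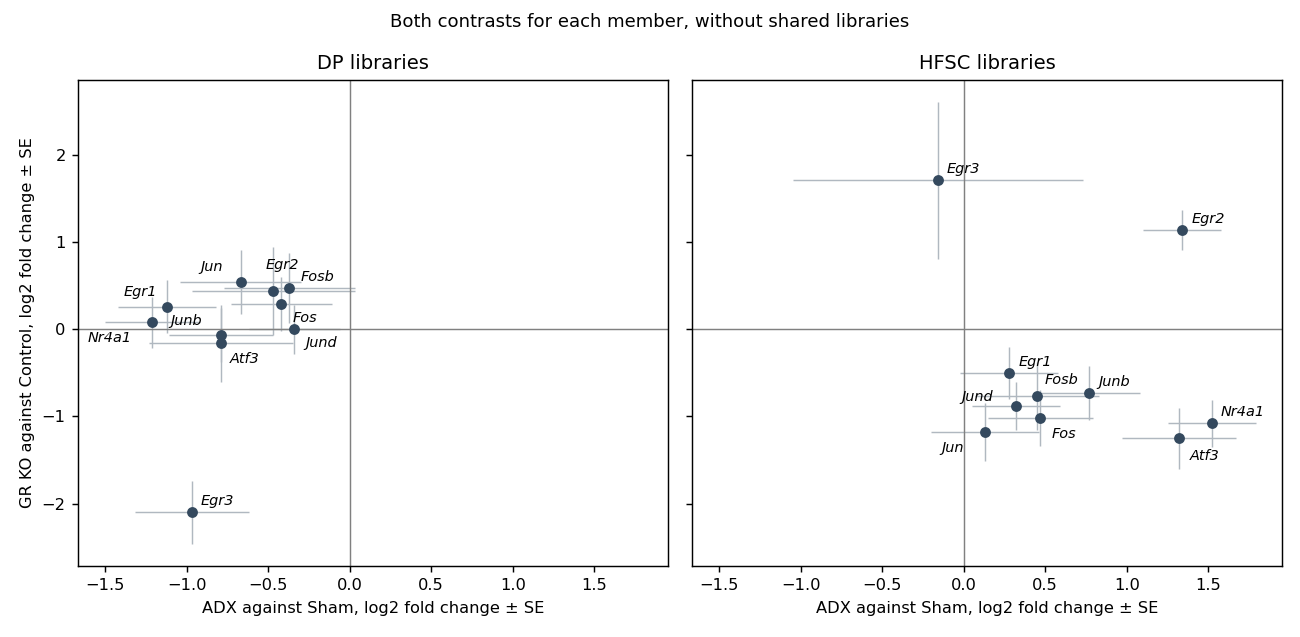
Log2 fold change of each gene after adrenalectomy (horizontal axis) and after receptor deletion (vertical axis) with standard errors, in DP on the left and HFSC on the right; the contrasts share no library. In HFSC, Nr4a1 (1.52 and −1.08) and Atf3 (1.32 and −1.25) are on opposite sides of 0, and Egr2 (1.34 and 1.14) is above 0 on both axes.

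The effect of receptor deletion was set against that of adrenalectomy in 1 model for each cell type. In HFSC the difference of log2 fold changes was −2.61 for Nr4a1 (SE 0.38, edgeR adjusted p = 0.104) and −2.57 for Atf3 (SE 0.49, edgeR adjusted p = 0.207). For Egr2 it was −0.21 (SE 0.33, edgeR adjusted p = 0.887). In edgeR 0 of the 10 differed, as did 0 of 15231 genes (0%), with 7 of the 10 at an unadjusted p under 0.05 (10.6% of all genes). DESeq2 called Nr4a1 and Atf3 (adjusted p = 1.33e-07 and 1.51e-04), 2 of the 10 against 0.649% of its genes. In DP 0 of the 10 differed in edgeR and 0 in DESeq2, against 0.477% and 6.66% of the genes. At an unadjusted p under 0.05 it was 4 of the 10, against 15.3% of all genes. The largest differences in DP were 1.38 for Egr1 (SE 0.42, edgeR adjusted p = 0.151) and 1.29 for Nr4a1 (SE 0.41, edgeR adjusted p = 0.171). The contrasts also differ in strain and tamoxifen.

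Within each cell type the levels of most of the 10 genes varied together across libraries, with lower correlations for Egr2 and Egr3 and, in HFSC, for Fosb and Egr1. Over the 8 DP libraries the correlation of a gene's log2 level with the mean of the other 9 was 0.96 for Junb, 0.94 for Nr4a1, 0.93 for Fos and 0.93 for Jund, but 0.51 for Egr2 and 0.20 for Egr3. Over the 10 HFSC libraries it was 0.98 for Atf3 and 0.97 for Junb, 0.58 for Egr1 and 0.37 for Fosb, and 0.20 for Egr2 and −0.53 for Egr3. Likeness was ranked among 11697 DP and 10509 HFSC genes with at least 5 CPM, without the 10 and without predicted or clone-named genes. The genes whose levels were most like the mean of the 10 were Zfp36 (0.984), Kyat3 (0.980), Socs3 (0.977), Adgra2 (0.976) and Phf1 (0.963) in DP. In HFSC they were Crbn (0.957), Paip2 (0.955), Rarres1 (0.933), Nr4a2 (0.927) and Dusp1 (0.925). Zfp36, Socs3, Nr4a2 and Dusp1 are themselves immediate early genes. The points share libraries and depth, the groups set most of the spread, and the values are descriptions over 8 and 10 libraries.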

How the data were processed

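RNA was measured in 18 libraries of sorted mouse cells, made with SMART-Seq v4 and Nextera XT, per the labels' protocols. For DP the authors deposited Salmon estimated counts per transcript, with mm10 and DESeq2 1.22.2 named in the submitters' processing notes. Here 134967 transcripts were matched to GENCODE M21, summed to symbols and rounded, and 150 had no match (at most 0.0752% of a library). For HFSC the authors deposited whole-number counts per gene from STAR 2.5.3 and featureCounts 1.6.1, unstranded with a minimum mapping quality of 30, per the file headers and processing notes. Reads shared by overlapping or similar genes could be split or lost. Some HFSC symbols had been turned into dates, and none was among the 10 genes.

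DP and HFSC were fitted apart in edgeR 4.0.16 (R 4.3.3), with TMM scaling, filterByExpr, 1 mean per group and quasi-likelihood tests, adjusted by Benjamini-Hochberg over all genes at 0.05. SE is the log2 fold change divided by the root of F. DESeq2 1.42.0, another scaling, no filter, other sets of libraries and a replicate block were alternatives. The code was tested on simulated data. Total counts were 6194415 to 33014976 per library. The biological coefficient of variation, as edgeR names its estimate of spread, was 54.0% in DP and 38.7% in HFSC. Named beside the 10 genes are Nr3c1, genes of the lists with the smallest edgeR p (up to 4 per list and comparison with at least 5 CPM), and the 5 genes per cell type most like the mean of the 10. Members, lists and rules were chosen with earlier results of these data known. The result of 1 list in GR KO DP is not reported here.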

Additional observations from a re-analysis of the deposited data

Results flagged for a closer look

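In 5 cases the libraries of a contrast did not overlap in either cell type, with opposite directions in DP and HFSC. After adrenalectomy 19.4% of all genes were lower without overlap in DP, and 25.5% were higher without overlap in HFSC. After receptor deletion 20.0% were lower and 31.6% higher in DP, and 19.1% were lower and 19.3% higher in HFSC. The share of all genes apart in opposite directions was not counted. The difference was not tested, because DP and HFSC reads were counted by separate pipelines. The DP minus HFSC difference of log2 fold changes after adrenalectomy was −2.73 for Nr4a1, −1.81 for Egr2 and −1.56 for Junb, all lower in DP and higher in HFSC. After receptor deletion it was −3.81 for Egr3, lower in DP and higher in HFSC. It was 1.31 for Fos, higher in DP and lower in HFSC. The DP value of Fos was 0.29 (SE 0.31), and −0.05 without Control replicate 1. For Egr2 the DP value was −0.47 (SE 0.50). The HFSC value of Egr3 was 1.71 (SE 0.90), resting on 20 and 39 counts in Control and 54 and 93 in GR KO.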

How the results depend on the processing

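Genes past the threshold in edgeR moved with the settings more than the values of the 10 genes did, and the cause was not tested. For ADX DP it was 4 genes, 467 with DESeq2, 894 with no filter on low counts, 0 in a fit of the 2 groups, 10 with the replicate block and 1 to 12 when 1 library was left out. For GR KO DP it was 361, and then 1373, 1456, 142 with the 2 groups and 19 to 226 without a library. For ADX HFSC it was 45, and then 841, 888, 93, 9 with the block, 146 with libraries of the same experiment and 0 to 235 without a library. For ADX+CORT against ADX it was 0, and then 1318, 1309, 884 with libraries of the same experiment and 0 to 549 without a library. For ADX+CORT against Sham it was 0, and then 59, 184, 2 with the 2 groups and 0 to 4. For GR KO HFSC it was 150, and then 717, 840 and 5 to 336.

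Of the 10 genes, 0 passed in ADX DP and 2 did with DESeq2 or with no filter. In GR KO DP 1 passed, and 0 to 1 without a library. In ADX HFSC 2 passed, 1 in a fit of the 2 groups, 0 with the replicate block and 0 without each library. In ADX+CORT against Sham 0 passed, 2 with DESeq2 and 3 with no filter. In GR KO HFSC 1 passed, 6 with DESeq2 or no filter, 0 in a fit of the 2 groups or with the block, and 0 to 2 without a library.

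The log2 fold change of Nr4a1 in GR KO DP was 0.08, but −0.01 with DESeq2, −0.01 with the other scaling, −0.07 with no filter, −0.04 in the 2 groups, −0.13 with protein-coding genes and −0.28 to 0.39 without a library. Jund there was −0.00, 0.01 with the replicate block and −0.30 to 0.07 without a library. Leaving out 1 library also changed the sign of 6 others in GR KO DP: Fos (−0.05 to 0.40), Fosb (−0.08 to 0.81), Egr1 (−0.08 to 0.28), Junb (−0.52 to 0.13), Egr2 (−0.28 to 0.94) and Atf3 (−0.70 to 0.24). In ADX DP it did so for Fosb (−0.77 to 0.05). In ADX HFSC it did so for Egr3 (−0.45 to 0.14), Jun (−0.35 to 0.49), Jund (−0.03 to 0.62) and Egr1 (−0.11 to 0.58). For ADX+CORT against ADX it did so for Fos (−0.30 to 0.51), Jun (−0.05 to 0.79), Junb (−0.20 to 0.56), Jund (−0.26 to 0.39), Egr1 (−0.19 to 0.50), Egr2 (−0.29 to 0.05) and Atf3 (−0.49 to 0.38), and against Sham for Fosb (−0.80 to 0.27). Where 1 library was left in a group, the fit gave it the spread of the remaining groups.

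Over all alternatives, 513 values of single members kept their direction and their side of the threshold, 23 newly passed, 20 no longer passed and 34 changed sign. The sources used here do not say what a replicate number shares. The correlation of deviations between groups ran from −0.15 to 0.22, which cannot settle whether libraries were paired. The block is given for completeness.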
